A study of Mus musculus with 6 samples.

Results

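Glyceroneogenesis and glycerol recycling are described here through 6 genes of mouse epididymal white adipose tissue, the fat pad along the epididymis, in 3 cold-exposed and 3 control mice. The genes are the glycerol channel Aqp7, the glycerol kinase Gk, the phosphoenolpyruvate carboxykinases Pck1 (cytosolic) and Pck2 (mitochondrial), and the glycerol 3-phosphate dehydrogenases Gpd1 (cytosolic) and Gpd2 (mitochondrial). They were chosen by name for their place in the pathway, and are 6 of 54356 genes and 39 of 140137 transcripts in the tables. All 6 genes and 23 of their transcripts had enough reads to be tested. Of the other 16 transcripts, 7 had an estimated count of 0 in every library.

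Fat cells store fatty acids by joining them to a glycerol 3-phosphate backbone. When triglyceride is broken down, glycerol leaves the cell through AQP7, and white fat cells are known for low glycerol kinase activity, so that little of it is phosphorylated again. The backbone is instead made from glucose through dihydroxyacetone phosphate and GPD1, or from pyruvate and oxaloacetate through phosphoenolpyruvate carboxykinase, a route called glyceroneogenesis. GPD2 oxidises glycerol 3-phosphate at the inner mitochondrial membrane and so forms the glycerol phosphate shuttle with GPD1. In brown fat, glycerol kinase is known to be higher than in white fat.

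All mice were male C57BL/6N wild types aged 20 weeks. The 3 cold libraries come from mice 7, 12 and 16, which were kept singly at 4 °C for 24 h. The 3 control libraries (ctrl) come from mice 5, 6 and 10, with general housing at 22 to 24 °C. The protocol text on cold housing is the same for all 6 samples, so that single or group housing of the ctrl mice is not known from it. The fat pads were processed whole, so in these bulk samples fewer cells of a type and less RNA per cell cannot be told apart. Each library is a separate mouse by its number. The p-values set the difference between groups against a spread between these mice that is estimated with information from all genes.

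Depth was 19735167 to 28608052 estimated read counts per library. Adipocyte markers were abundant in all 6 libraries, with 12 genes summing to 56734 to 58858 CPM (estimated counts relative to a library size that is scaled between libraries) in cold and 54449 to 61200 CPM in ctrl. These sums hide opposite differences of single markers, none called by edgeR. An unadjusted p under 0.05 was found for 5 markers, against 17.6% of all genes. DESeq2 called 3 (Fabp4, Acsl1 and Adrb3), against 7.51% of all genes. Log2 fold changes were negative for 10 of the 12, with all cold libraries lower for Plin1, Plin4, Lipe, Car3 and Adrb3 (-0.14 to -0.70), while all cold libraries were higher for Acsl1 (0.55) and for the abundant Fabp4, at 14867 CPM in cold and 11938 CPM in ctrl on average. Markers of other cells differed between the groups too, read against 2.32% of all 17852 genes tested that edgeR called higher in cold. The 12 epithelial markers summed to 154 to 266 CPM in cold and 18.7 to 65.9 CPM in ctrl, 4 of 11 tested were called higher by edgeR, and none was at 0 in all libraries. For motile cilia, 10 of 12 markers matched by symbol and summed to 59.7 to 190 CPM in cold and 3.49 to 27.3 CPM in ctrl, with 3 of 10 called higher by edgeR. An unadjusted p under 0.05 by edgeR was found for 10 of 11 epithelial and 10 of 10 cilium markers tested, against 17.6% of all genes. DESeq2 called 10 epithelial and 7 cilium markers, against 7.51% of all genes. All cold libraries were higher for 10 epithelial and 10 cilium markers, against 12.7% of all genes. Germ cell markers summed to 53.5, 45.4 and 4.29 CPM in cold 7, cold 12 and cold 16, against 0.33 to 3.71 CPM in ctrl. Male tract secretory markers stood at 142 CPM in cold 7 and 149 CPM in ctrl 10 and at 0.0894 to 2.23 CPM in the other libraries, with Lcn9 at 0 in all. Brown adipocyte markers summed to 27.5 to 29.6 CPM in cold and 23.3 to 24.4 CPM in ctrl, with all 6 tested markers positive and 1 of them called higher by edgeR. That marker was Dio2, a thyroid hormone deiodinase, at 1.36, 2.71 and 2.79 CPM in cold 7, cold 12 and cold 16 and 0.33, 0.358 and 0.411 CPM in ctrl 5, ctrl 6 and ctrl 10 (log2 fold change 2.64, adjusted p = 0.0252). Ucp1, the uncoupling protein that defines that cell, did not exceed 0.413 CPM in any library. Endothelial markers summed to 1189 to 1335 CPM in cold and 1419 to 1496 CPM in ctrl, with 8 of 8 log2 fold changes negative (median -0.17), none called by edgeR, 3 with an unadjusted p under 0.05 and Tie1 called by DESeq2. All 7 mesothelial markers were also negative, with overlapping sums of 65.3 to 247 CPM in cold and 110 to 281 CPM in ctrl.

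Several stretches of sequence carry the results on transcripts below. Gk is on the minus strand of chromosome X, and 3 coding exons, all in GRCm38 and read from the GENCODE M21 transcripts, distinguish its main coding transcripts from Gk-201. They are shown because the transcript that holds the first of them, Gk-206, was the one of these 3 coding transcripts whose share of Gk did not overlap between the groups. Exon 5 of Gk-206 (chrX:85749612-85749695, 84 bases) and exons 9 (chrX:85739222-85739239, 18 bases) and 20 (chrX:85706238-85706324, 87 bases) of Gk-202 read as follows, with all bases in capitals because each exon is absent as a whole from Gk-201.
Gk-206 exon 5: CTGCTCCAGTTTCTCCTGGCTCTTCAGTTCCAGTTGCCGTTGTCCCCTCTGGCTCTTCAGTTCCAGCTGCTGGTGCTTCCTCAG
Gk-202 exon 9: AAAATCTCTCATAGCCTG
Gk-202 exon 20: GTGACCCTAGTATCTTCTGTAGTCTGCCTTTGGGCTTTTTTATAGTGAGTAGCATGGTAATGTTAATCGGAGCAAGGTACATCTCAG

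Promoter sequences of RefSeq (GRCm38.p6) matched 5 of the 6 genes, all but Gpd1, with 7 start sites. The 250 bases before each start were searched on both strands for 5 motifs, namely the PPAR direct repeat (AGGTCA, any base, AGGTCA), the cAMP response element TGACGTCA, its half-site TGACG (which the full element contains), the C/EBP site TTGCGCAA and the TATA box TATAAA. Only Pck1 held a match, the half-site TGACG on the minus strand, which starts 90 bases before the RefSeq start and is in capitals below. That half-site occurs in 17.8% of 32851 promoter windows of this length, the full element in 1.55%, the TATA box in 12.4%, the C/EBP site in 0.164% and the PPAR repeat in 0.0335%. Both start sites of Gpd2 are shown because the transcripts divide by start site, as described with that gene. The windows are chr2:173152823-173153072 for Pck1, chr2:57237428-57237677 for the upstream and chr2:57238132-57238381 for the downstream start of Gpd2, all on the plus strand.
Pck1: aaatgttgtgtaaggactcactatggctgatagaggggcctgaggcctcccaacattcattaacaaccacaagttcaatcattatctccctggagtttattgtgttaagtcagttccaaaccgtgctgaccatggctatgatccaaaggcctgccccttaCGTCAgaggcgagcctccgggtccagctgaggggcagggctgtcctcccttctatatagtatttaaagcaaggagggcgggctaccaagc
Gpd2 upstream start: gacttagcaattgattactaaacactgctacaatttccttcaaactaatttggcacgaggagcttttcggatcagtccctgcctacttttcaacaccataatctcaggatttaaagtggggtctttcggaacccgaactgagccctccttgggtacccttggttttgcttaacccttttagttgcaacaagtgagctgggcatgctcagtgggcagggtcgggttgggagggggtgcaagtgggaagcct
Gpd2 downstream start: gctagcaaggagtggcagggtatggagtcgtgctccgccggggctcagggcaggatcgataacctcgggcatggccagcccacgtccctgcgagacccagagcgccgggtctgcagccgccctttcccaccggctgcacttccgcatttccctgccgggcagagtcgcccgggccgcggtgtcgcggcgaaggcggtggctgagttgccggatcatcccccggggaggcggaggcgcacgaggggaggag

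The 6 genes covered a wide range of levels, which were compared per length in TPM, a level scaled for transcript length and depth. Pck1 had the highest TPM with 1176 ± 283 in cold and 1628 ± 271 in ctrl, followed by Gpd1 with 573 ± 55.9 in cold and 478 ± 47.6 in ctrl (SD, n = 3 each). Aqp7 followed with 118 ± 8.84 TPM in cold and 129 ± 16.9 TPM in ctrl, and Pck2 with 32.4 ± 0.853 TPM in cold and 35.5 ± 1.07 TPM in ctrl. At the low end stood Gpd2 with 15.5 ± 3.5 TPM in cold and 13 ± 2.31 TPM in ctrl, and Gk with 13.9 ± 5.24 TPM in cold and 4.13 ± 1.17 TPM in ctrl (SD, n = 3 each). Within each group neighbours in this order did not overlap, with the exception of Gpd2 and Gk in cold. In cold the TPM of Gpd2 was 11.9 to 18.9 and that of Gk 8.51 to 19.0, whereas in ctrl Gpd2 at 10.4 to 14.8 lay above Gk at 3.17 to 5.43. Among tested genes the mean TPM of Pck1 was at percentile 99.6, that of Gpd1 at 98.7 and that of Aqp7 at 93.5, against 49.4 for Gk.

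**Figure D1:**
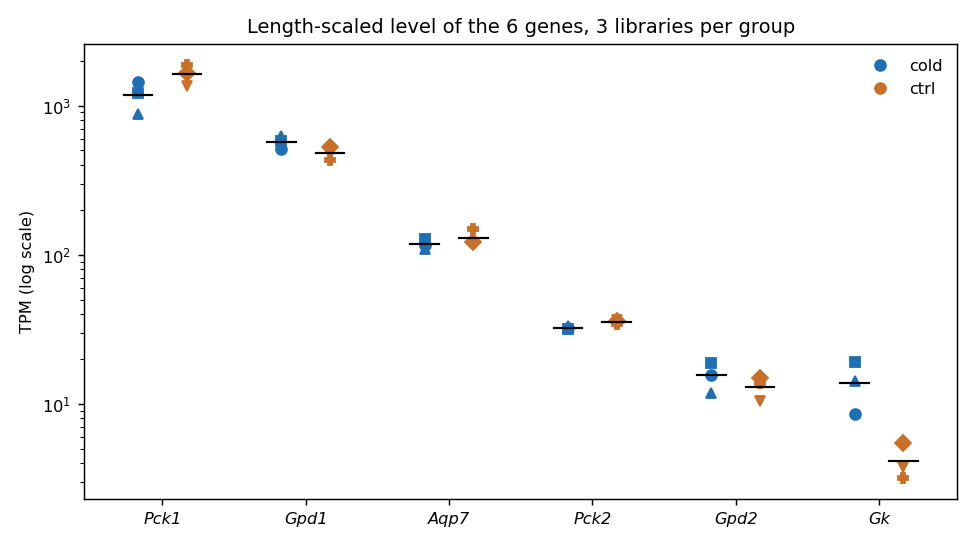
TPM of each gene on a log axis, with 1 point per library, cold left of ctrl within each gene, and a line at each group's mean. Gk is the gene with the largest distance between groups, at 8.51 to 19.0 TPM in cold and 3.17 to 5.43 TPM in ctrl.

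The comparison of cold with ctrl asks whether expression of the pathway differed after 24 h at 4 °C. None of the 6 genes passed the threshold of an adjusted p under 0.05 by edgeR's quasi-likelihood test, while 3 had an unadjusted p under 0.05 and 1 passed by DESeq2. Of all 17852 genes tested, 2.89% were called by edgeR (2.32% higher and 0.566% lower in cold), 17.6% had an unadjusted p under 0.05 and 7.51% were called by DESeq2. Cold and ctrl CPM ranges did not overlap for 2 of the 6 genes, against 23.8% of all genes. The mean CPM was higher in cold for 3 genes (Gk, Gpd1 and Gpd2) and lower for 3 (Pck1, Pck2 and Aqp7), with a median log2 fold change of 0.05 against -0.01 over all genes tested. Of their 23 tested transcripts none passed by edgeR, 5 had an unadjusted p under 0.05 and 1 passed by DESeq2, against 0.0%, 8.15% and 2.71% of all transcripts tested.

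**Figure D2:**
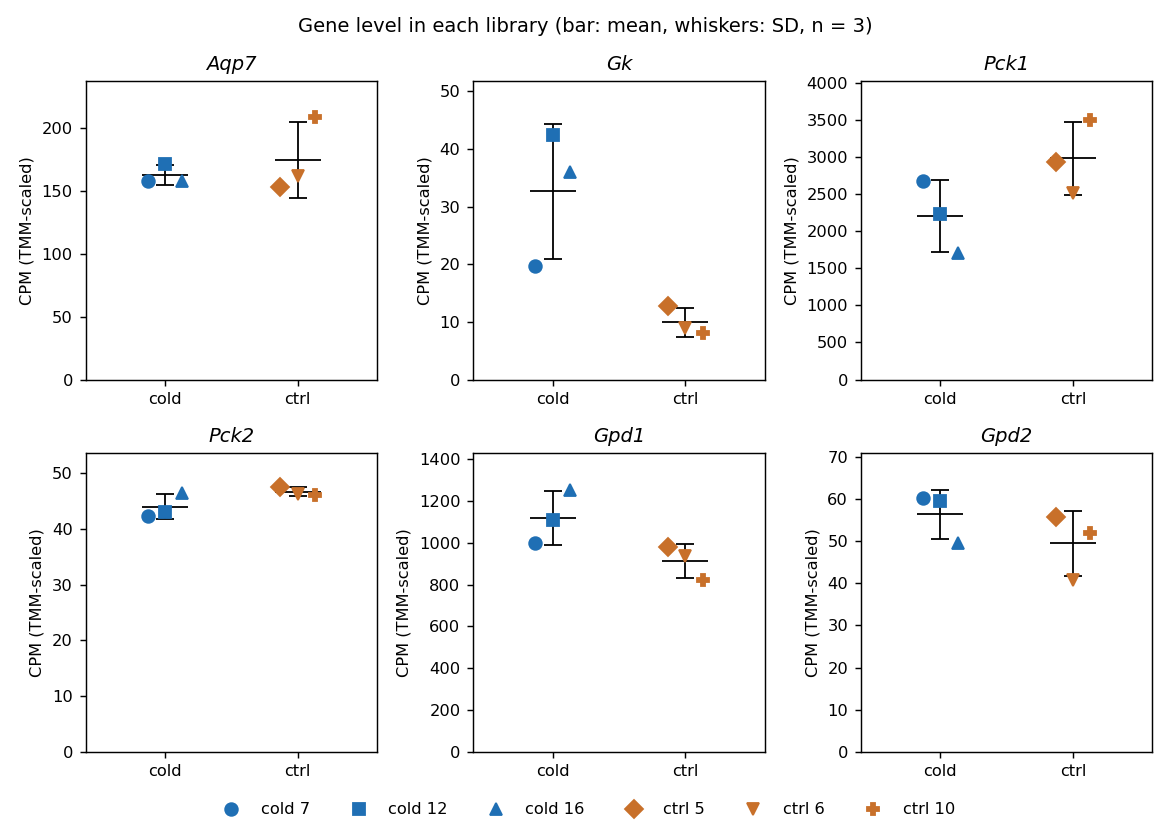
CPM of each gene in each library, cold left of ctrl, with 1 point per mouse, a bar at the mean and whiskers of 1 SD (n = 3 each). Gk (19.7 to 42.4 CPM in cold, 8.01 to 12.8 CPM in ctrl) and Gpd1 are the genes in which no cold library falls within the range of ctrl.

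Gk (ENSMUSG00000025059.16, chrX:85701937-85776819, minus strand) encodes the kinase that turns free glycerol into glycerol 3-phosphate. It had 449, 1078 and 1035 estimated counts in cold 7, cold 12 and cold 16, against 309, 201 and 156 in ctrl 5, ctrl 6 and ctrl 10. Scaled between libraries these were 19.7, 42.4 and 36.1 CPM in cold, against 12.8, 8.98 and 8.01 CPM in ctrl. All cold libraries lay above all ctrl libraries, as for 12.7% of genes tested, and the groups came closest in cold 7 and ctrl 5. The fitted difference was 3.29-fold, a log2 fold change of 1.72 (SE 0.33, 95% interval 0.92 to 2.52, unadjusted p = 0.00186). Its adjusted p over all genes by edgeR was 0.0558, just above the threshold, and by DESeq2 6.87e-08.

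The call for Gk turned on the libraries and the scaling. It passed by edgeR without cold 7 (log2 fold change 1.98, adjusted p = 0.00531), without ctrl 5 (1.95, adjusted p = 0.0492), without both (2.21, adjusted p = 0.000141), with an offset for transcript length (1.79, adjusted p = 0.0443) and with scaling to adipocyte markers (1.80, adjusted p = 0.0437). It missed the threshold by edgeR without cold 12, cold 16, ctrl 6 or ctrl 10 (adjusted p = 0.146, 0.14, 0.174 and 0.171). In those fits edgeR called 0, 3, 0 and 0 of all genes, so a miss there is not particular to Gk. The unadjusted p of Gk was 0.00367, 0.00756, 0.0107 and 0.00848 in them. Without a filter on low counts Gk missed the threshold too (adjusted p = 0.179). The log2 fold change stayed between 1.5 and 2.21 in all these fits. Scaling to adipocyte markers raised log2 fold changes in general, with a median over all genes of 0.083, against -0.013.

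Libraries ranked by Gk stood in the same order as by the summed motile cilium markers, which were 59.7, 190 and 155 CPM in cold 7, cold 12 and cold 16 and 27.3, 6.39 and 3.49 CPM in ctrl 5, ctrl 6 and ctrl 10. Summed epithelial markers were 154, 266 and 245 CPM in cold 7, cold 12 and cold 16 and 65.9, 18.7 and 39.9 CPM in ctrl 5, ctrl 6 and ctrl 10. The part of these cells in the Gk result was not tested. The summed adipocyte markers did not follow that order, with 58858, 57554 and 56734 CPM in the cold libraries and 54449, 61200 and 58505 CPM in the ctrl libraries. Among 11148 genes whose mean reached 5 CPM, the patterns most like Gk over the 6 libraries were those of the membrane adaptor Ank3 (Pearson r = 0.999 of log2 CPM), the adhesion molecule Igsf11 (0.998) and the carbonic anhydrase Car2 (0.997). In all, 259 genes had an r above 0.95 with Gk, the most of any of the 6 genes.

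**Figure D3:**
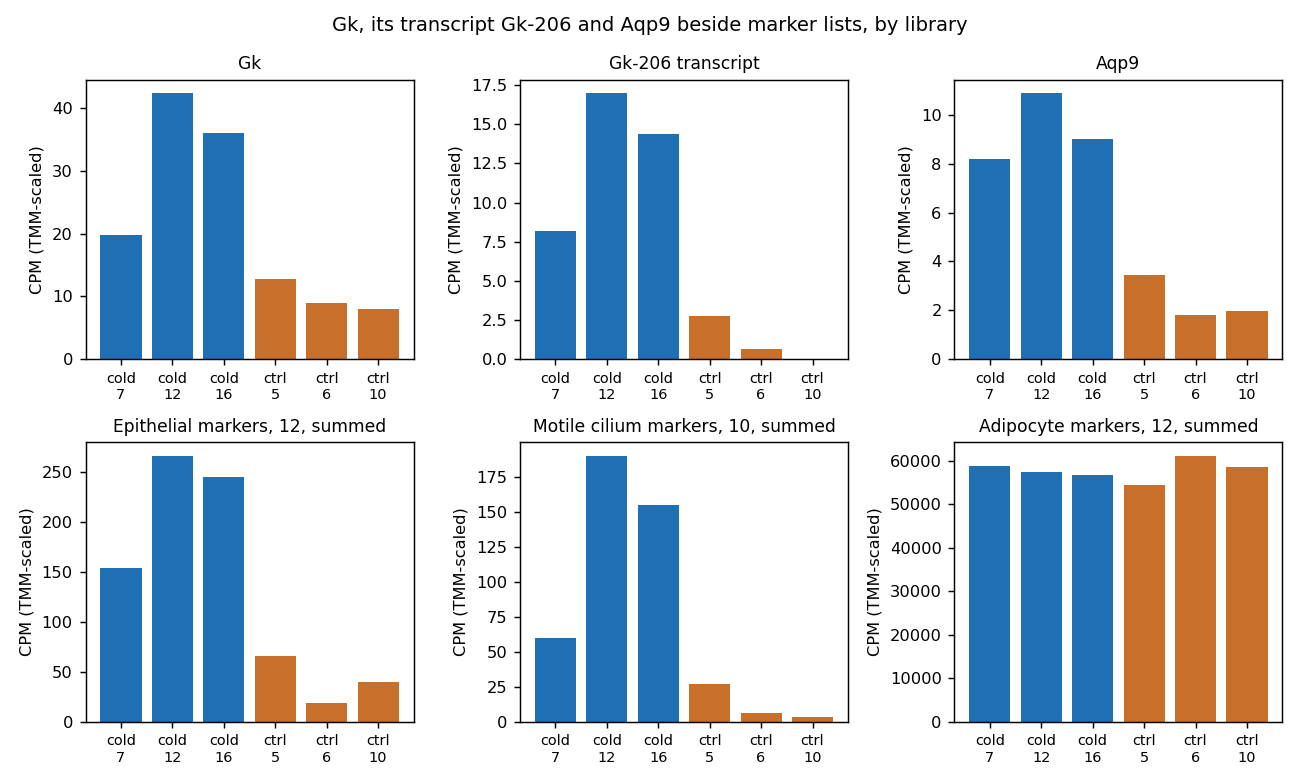
CPM by library for Gk, its transcript Gk-206, Aqp9 and the summed epithelial, motile cilium and adipocyte markers, with cold libraries left of ctrl libraries and each axis starting at 0. Cold 12 is the highest library and cold 7 the lowest cold library in all panels but that of the adipocyte markers, where the 6 libraries range from 54449 to 61200 CPM.

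Gk has 8 annotated transcripts, of which 3 coding ones held most counts. Gk-201, with 19 exons and a coding length of 1572 bases, had 10.3, 19.2 and 16.0 CPM in cold 7, cold 12 and cold 16 and 6.62, 7.92 and 6.22 CPM in ctrl 5, ctrl 6 and ctrl 10. Gk-206, which carries exon 5 shown above and a coding length of 1656 bases, had 8.18, 17 and 14.4 CPM in cold and 2.74, 0.635 and 0 CPM in ctrl. Gk-202, with both other exons shown above and a coding length of 1677 bases, had 0.922, 5.58 and 5.24 CPM in cold and 3.31, 0.311 and 1.74 CPM in ctrl. For Gk-201 and Gk-206 no cold library overlapped ctrl, and for Gk-202 the ranges overlapped. Such a lack of overlap was found for 23.8% of all genes and was not counted over all transcripts.

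The share of Gk counts given to Gk-206 was 41.6, 40.1 and 39.8% in cold 7, cold 12 and cold 16, against 21.5, 7.06 and 0% in ctrl 5, ctrl 6 and ctrl 10. The cold shares were thus close to each other although total Gk in cold 7 was lower than in the other cold libraries, and the ctrl shares were all lower and widely spread. Gk-201 differed by 1.15 on the log2 scale (SE 0.25, unadjusted p = 0.00338) and Gk-206 by 3.54 (SE 1.24, unadjusted p = 0.0297), a fitted value that depends on the small ctrl counts of 66.3, 14.2 and 0. Over the 42984 transcripts tested, the adjusted p by edgeR's quasi-likelihood test was 0.257 for Gk-201 and 0.525 for Gk-206. By DESeq2 it was 0.00616 for Gk-201 and 0.0682 for Gk-206, so Gk-206 was called by neither tool. The transcripts differ by exon 5 and by their first exon, 394 bases in Gk-201 and 199 bases in Gk-206, so their split rests on few reads and its uncertainty is not in these p-values. Exon 5 also lies opposite an exon of the antisense gene Gm14764 (chrX:85744348-85749764, plus strand), which had a count of 0 in all 6 libraries.

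**Figure D4:**
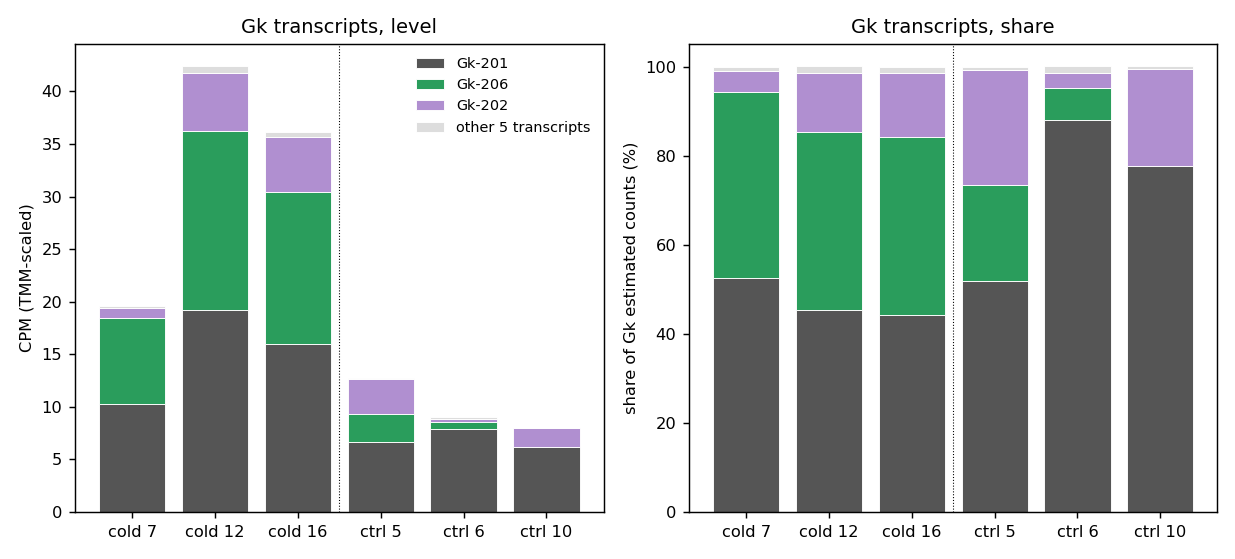
Gk transcripts in each library as stacked CPM (left) and as a percentage of Gk estimated counts (right), cold libraries left of the dotted line. The Gk-206 segment takes 39.8 to 41.6% in the cold libraries and 0 to 21.5% in the ctrl libraries.

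Aqp7 (ENSMUSG00000028427.13, chr4:41033074-41048139, minus strand) encodes the aquaglyceroporin through which glycerol leaves fat cells. It had 158, 172 and 158 CPM in cold 7, cold 12 and cold 16 and 153, 162 and 209 CPM in ctrl 5, ctrl 6 and ctrl 10. The ranges overlapped, and ctrl 10 stood above the other 5 libraries. The log2 fold change was -0.10 (SE 0.12, adjusted p = 0.736 by edgeR), with a 95% interval of 0.771- to 1.13-fold. Without ctrl 10 its sign turned, to a log2 fold change of 0.05.

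The 2 coding transcripts of Aqp7 share a coding length of 909 bases and differ in their starts. Aqp7-201, whose annotated start is at 41048139, held 63.1, 77.2 and 68.7% of Aqp7 counts in cold and 71.9, 80.4 and 69.2% in ctrl. Aqp7-202, which starts nearer to the coding region at 41045448, held 35.5, 21.2 and 29.9% in cold and 25.8, 17.6 and 29.6% in ctrl. These shares overlapped between the groups, and neither transcript had an unadjusted p under 0.05. The genes most like Aqp7 over the libraries were Trim47 (r = 0.99), the long-chain fatty acid receptor Ffar4 (0.989) and Pwwp2a (0.984).

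Pck1 (ENSMUSG00000027513.11, chr2:173153048-173159273, plus strand) encodes the cytosolic enzyme that turns oxaloacetate into phosphoenolpyruvate, the step known to control glyceroneogenesis in fat. It had 2681, 2226 and 1703 CPM in cold 7, cold 12 and cold 16 and 2927, 2519 and 3503 CPM in ctrl 5, ctrl 6 and ctrl 10. Cold 16 was the lowest library and ctrl 10 the highest, but cold 7 lay above ctrl 6, so the groups overlapped. The log2 fold change was -0.44 (SE 0.19, 95% interval -0.87 to -0.01), with an unadjusted p of 0.0472 and an adjusted p of 0.276 by edgeR (0.107 by DESeq2). It ranged from -0.61 to -0.28 with each library left out in turn and missed the threshold each time.

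Spliced Pck1-201 held 93.0 to 95.1% of Pck1 counts in every library. Pck1-202, a retained-intron transcript over nearly the whole gene, had 108, 96.1 and 95 CPM in cold and 162, 116 and 194 CPM in ctrl, with no overlap. Its log2 fold change was -0.64 (SE 0.19, unadjusted p = 0.0169, adjusted p = 0.441 by edgeR). As a share of Pck1 it was 4.02, 4.32 and 5.58% in cold and 5.55, 4.6 and 5.54% in ctrl, which overlapped, so the transcript was lower together with the gene. The genes most like Pck1 were Dennd4b (r = 0.998), Wdr36 (0.996) and the immune checkpoint receptor Vsir (0.995).

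Pck2 (ENSMUSG00000040618.7, chr14:55540266-55551242, plus strand) encodes the mitochondrial form of the same enzyme. It had 42.3, 43.1 and 46.5 CPM in cold 7, cold 12 and cold 16 and 47.6, 46.3 and 46.1 CPM in ctrl 5, ctrl 6 and ctrl 10, the smallest spread of the 6 genes. The CPM ranges overlapped through cold 16, while in TPM all cold libraries (31.7 to 33.4) lay below all ctrl libraries (34.3 to 36.4). The log2 fold change was -0.09 (SE 0.07, adjusted p = 0.606 by edgeR), with a 95% interval of 0.842- to 1.05-fold, and it was 0.01 when libraries were scaled to adipocyte markers. The patterns most like it were those of Cnpy2 (r = 0.992), the ribosomal protein pseudogene Rpl31-ps8 (0.986), whose reads cannot be told apart with certainty from its parent gene's, and the zinc finger gene Zfp738 (0.986).

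Pck2 stood apart in its transcripts from the other genes that have annotated retained-intron transcripts. Of its 13 transcripts, 5 with retained introns held 44.3, 43.8 and 52.5% of its counts in cold and 48.2, 52.5 and 43.1% in ctrl. The largest of all was the retained-intron transcript Pck2-210, with 36.6, 33.7 and 41.5% in cold and 35.2, 39.1 and 34% in ctrl. Coding transcripts Pck2-208, Pck2-207 and Pck2-201 held 19.4, 17.4 and 13.6% over all libraries, and none of these 4 had an unadjusted p under 0.05. Retained-intron transcripts held at most 6.78% of counts for Pck1, 1.38% for Gk and 0.51% for Gpd1 in any library.

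The ratio of Pck1 to Pck2 in TPM was 44.8, 38.4 and 26.2 in cold 7, cold 12 and cold 16 and 46.4, 36.9 and 54.8 in ctrl 5, ctrl 6 and ctrl 10. Cytosolic Pck1 thus exceeded Pck2 by a wide margin in every library, and the ranges of the groups overlapped.

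Gpd1 (ENSMUSG00000023019.12, chr15:99717515-99725005, plus strand) encodes the cytosolic enzyme that makes glycerol 3-phosphate from dihydroxyacetone phosphate. It had 998, 1111 and 1255 CPM in cold 7, cold 12 and cold 16 and 980, 936 and 821 CPM in ctrl 5, ctrl 6 and ctrl 10. All cold libraries lay above all ctrl libraries, with cold 7 and ctrl 5 next to each other. In TPM the groups overlapped, since cold 7 had 514 and ctrl 5 had 526. The log2 fold change was 0.30 (SE 0.11, 95% interval 0.04 to 0.56), with an unadjusted p of 0.0292 and an adjusted p of 0.214 by edgeR (0.0703 by DESeq2). Gpd1-201 held 99.5 to 99.8% of its counts. Patterns most like that of Gpd1 were those of the placental growth factor Pgf (r = 0.992), Cby1 (0.99) and the kinase Sbk1 (0.987).

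Gpd2 (ENSMUSG00000026827.12, chr2:57237635-57370719, plus strand) encodes the mitochondrial flavoenzyme of the glycerol phosphate shuttle. It had 60.2, 59.5 and 49.6 CPM in cold 7, cold 12 and cold 16 and 55.7, 40.8 and 52.1 CPM in ctrl 5, ctrl 6 and ctrl 10. The ranges overlapped, with ctrl 6 below the other 5 libraries. The log2 fold change was 0.19 (SE 0.13, 95% interval 0.928- to 1.4-fold, adjusted p = 0.528 by edgeR). Closest to it in pattern were Dpep1 (r = 0.994), the phosphatase Ptpn13 (0.993) and the amino acid transporter Slc38a1 (0.986).

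Gpd2 transcripts came almost wholly from the downstream of the 2 start sites whose upstream bases are shown above. Gpd2-201, which starts at 57238382, held 96.3, 99.8 and 90.6% of Gpd2 counts in cold and 98.7, 96.1 and 99.0% in ctrl. Gpd2-207, from the upstream start at 57237678 with the same coding length of 2181 bases, had 51.3, 0 and 133 estimated counts in cold and 18.1, 33.2 and 0 in ctrl. Its presence in only some libraries of each group gives no difference beyond their spread (adjusted p = 0.932 by edgeR). The gene A930012O16Rik lies opposite both start sites (chr2:57236227-57238508, minus strand) and had at most 104.4 counts in a library.

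**Figure D5:**
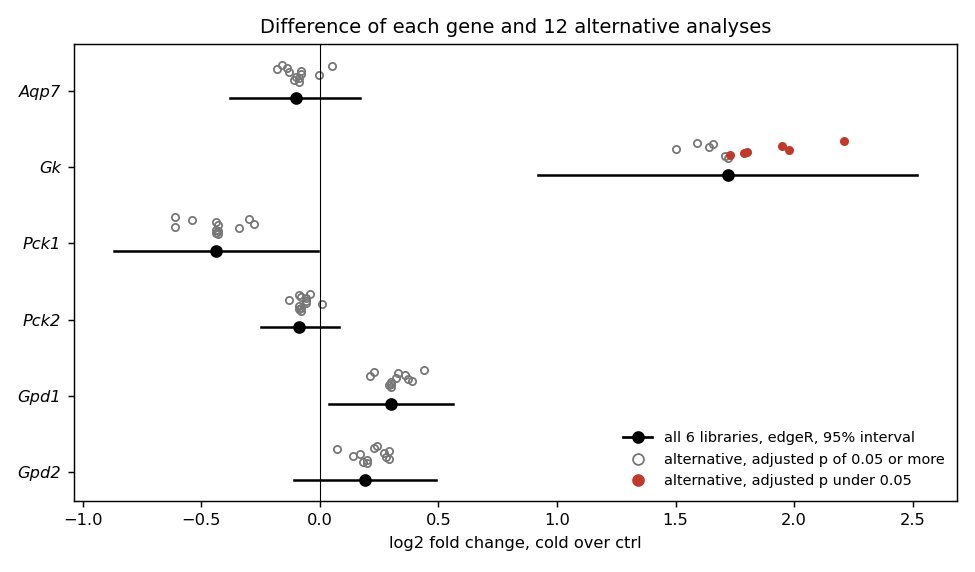
Log2 fold change of each gene, cold over ctrl, with its 95% interval from all 6 libraries (black) and the values of 12 alternative analyses (small circles, red where the adjusted p was under 0.05). Red circles occur for Gk alone, and the values of Aqp7 and Pck2 lie on both sides of 0.

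Over the pair of dehydrogenases, the ratio of Gpd1 to Gpd2 in TPM was 32.7, 30.7 and 52.4 in cold 7, cold 12 and cold 16 and 35.5, 45.7 and 31.5 in ctrl 5, ctrl 6 and ctrl 10, which overlapped. The ratio of Pck1 to Gpd1, looked at after their values had been seen, was 2.79, 2.1 and 1.4 in cold and 3.15, 2.83 and 4.36 in ctrl. All 3 cold ratios lay below all 3 ctrl ratios, with a mean of 2.1 ± 0.697 in cold and 3.45 ± 0.808 in ctrl (SD, n = 3 each).

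The relatives of these genes that also move glycerol or glycerol 3-phosphate were compared next. Of 8 relatives 5 were tested, 1 of which, Aqp9, was called higher in cold, against 2.32% of all genes called higher (median log2 fold change of the 5 tested, 0.22). Aqp9, a glycerol and water channel known from liver and from the epididymal epithelium, had 8.18, 10.9 and 9.01 CPM in cold 7, cold 12 and cold 16 and 3.43, 1.79 and 1.95 CPM in ctrl 5, ctrl 6 and ctrl 10. It rose by 1.96 on the log2 scale (SE 0.27, adjusted p = 0.0226 by edgeR) and missed the threshold without cold 12, cold 16, ctrl 6 or ctrl 10 (adjusted p = 0.122, 0.0544, 0.0876 and 0.105). In those fits edgeR called 0, 3, 0 and 0 of all genes. As for Gk, the libraries nearest to the other group were cold 7 and ctrl 5, and the part of epithelial cells, whose summed markers are given above, was not tested. In TPM, Aqp9 stood at 5.77 to 7.8 in cold and 1.82 to 2.79 in ctrl, far below Aqp7 at 110 to 127 in cold and 118 to 149 in ctrl.

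The other relatives were called neither by edgeR nor by DESeq2. Of the 5 tested, 3 had an unadjusted p under 0.05 by edgeR, Aqp9 among them, against 17.6% of all genes. All cold libraries were higher than ctrl for Aqp11 and lower for Gpd1l and Gk5, against 23.8% of all genes with no overlap. The channel Aqp11 stood at a log2 fold change of 0.47, the phosphatase Pgp, which releases glycerol from glycerol 3-phosphate, at 0.22, Gpd1l at -0.21 and Gk5 at -0.29. Gk5, a kinase related to Gk, had 2.65 to 3.18 TPM in cold and 2.93 to 3.19 TPM in ctrl. The glycerol channel of skin and kidney, Aqp3, was at or below 0.45 TPM in every library. Gk2 and Gykl1, intronless testis copies of glycerol kinase, were too low for the test. Gk2 had 2.76, 0.786 and 0 CPM in cold 7, cold 12 and cold 16 and at most 0.0894 CPM in ctrl, and Gykl1 had 3.15, 0.511 and 0.0349 CPM in cold and 0 in ctrl. Both were thus highest in cold 7, which was also the highest library in summed germ cell markers at 53.5 CPM. Cold 12 was close to cold 7 in those markers, at 45.4 CPM, but had much less of Gk2 and Gykl1. A link between these 2 genes and germ cell markers was not tested.

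Supply of oxaloacetate and its shuttling between mitochondrion and cytosol were covered by 16 genes, all tested and none called by edgeR (11 positive and 5 negative log2 fold changes, median 0.09). Of these, 4 had an unadjusted p under 0.05, against 17.6% of all genes. DESeq2 called Got1, Got2 and Slc25a13 (adjusted p = 0.0165, 0.00888 and 0.00487), against 7.51% of all genes. These 3 also passed by edgeR without cold 7 (adjusted p = 0.0434, 0.0332 and 0.0128). They passed with adipocyte scaling too (0.0326, 0.0289 and 0.0485), which raised log2 fold changes in general. Slc25a13 further passed with no low-count filter (0.00873) and without ctrl 5 and cold 7 (0.00851). The lowest p-values belonged to the aspartate aminotransferases Got1 at 0.53 (adjusted p = 0.0558 by edgeR) and Got2 at 0.30 (0.0578), the aspartate-glutamate carrier Slc25a13 at 1.34 (0.065) and malate dehydrogenase Mdh1 at 0.24 (0.237). Got1 had 11.6, 12.1 and 13.5 CPM in cold 7, cold 12 and cold 16 and 8.51, 8.67 and 8.68 CPM in ctrl 5, ctrl 6 and ctrl 10, with no overlap. Got2 had 66.2, 73.0 and 71.2 CPM in cold and 58.1, 55.8 and 56.6 CPM in ctrl, also with no overlap, as for 23.8% of all genes. Pyruvate carboxylase, Pcx, which makes oxaloacetate from pyruvate, was at -0.11.

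Of 9 genes of the triose phosphate steps, all tested, Aldoc was called higher by edgeR, against 2.32% of all genes (8 positive and 1 negative, median 0.14). DESeq2 called Aldoc and the enolase Eno1, against 7.51% of all genes. Aldoc, the aldolase best known from brain, had 2.32, 7.71 and 7.86 CPM in cold 7, cold 12 and cold 16 and 0.95, 0.894 and 0.411 CPM in ctrl 5, ctrl 6 and ctrl 10. It rose by 2.97 on the log2 scale (SE 0.54, adjusted p = 0.0411 by edgeR), with the extremes that lie next to each other again in ctrl 5 and cold 7. It missed the threshold with any library but cold 7 left out (adjusted p = 0.0719 to 0.148), with no low-count filter (0.0795) and with the transcript length offset (0.0594). Of all genes, edgeR called 0 without cold 12, ctrl 6 or ctrl 10, 3 without cold 16 and 695 without ctrl 5.

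Steps on either side of the backbone held no call by edgeR. Of 10 genes that join fatty acids to glycerol 3-phosphate or finish the triglyceride, 9 were tested (median 0.06) and none had an unadjusted p under 0.05 or a call by DESeq2, with the acyltransferase Gpat3 at -0.23 and Agpat1, Lpin1 and Dgat1 at 0.06, 0.08 and 0.07. Of 7 lipolysis genes, which release the glycerol, all were tested (4 positive, 3 negative, median 0.04). Of these, 3 had an unadjusted p under 0.05, against 17.6% of all genes. The triglyceride lipase Pnpla2 had 2904, 3214 and 2923 CPM in cold 7, cold 12 and cold 16 and 2023, 2114 and 2443 CPM in ctrl 5, ctrl 6 and ctrl 10, a log2 fold change of 0.46 (adjusted p = 0.0619 by edgeR). Its coactivator Abhd5 stood at 0.33 (adjusted p = 0.086). Pnpla2 and Abhd5 were called by DESeq2 (adjusted p = 5.24e-05 and 0.0133), against 7.51% of all genes. By edgeR both passed with no low-count filter (0.0188 and 0.0469) and with adipocyte scaling (0.0303 and 0.0314), which raised log2 fold changes in general. The lipid droplet coat Plin1 stood at -0.23 and the lipase Lipe at -0.21.

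Of 18 regulators known for these genes, all were tested and none was called by edgeR (8 positive, 10 negative, median -0.02). An unadjusted p under 0.05 was found for 5 of them, against 17.6% of all genes. The insulin receptor substrate Irs2 had 85.2, 71.8 and 46.0 CPM in cold 7, cold 12 and cold 16 and 145, 123 and 147 CPM in ctrl 5, ctrl 6 and ctrl 10, a log2 fold change of -1.03 (adjusted p = 0.0663 by edgeR). The coactivator Ppargc1a had 8.01, 9.75 and 7.19 CPM in cold and 5.86, 4.43 and 4.67 CPM in ctrl, a log2 fold change of 0.74 (adjusted p = 0.0738). Neither overlapped between the groups, as for 23.8% of all genes. DESeq2 called both (adjusted p = 8.94e-06 for Irs2 and 0.0197 for Ppargc1a), against 7.51% of all genes. By edgeR, Irs2 passed without cold 7 (0.0254) and without ctrl 5 and cold 7 (0.0383), and Ppargc1a with no low-count filter (0.039). Cebpb stood at 0.32, and Foxo1, a target of insulin signalling known to activate Pck1, at 0.20. By edgeR, Cebpb passed without ctrl 5 (0.49, adjusted p = 0.0317) and without ctrl 5 and cold 7 (0.47, adjusted p = 0.0277).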

How the data were processed

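Polyadenylated RNA was sequenced as strand-specific paired-end libraries of 50 nt reads, per the labels' protocols. bcl2fastq, cutadapt and Salmon were used with GRCm38, per the submitters' processing notes; versions, settings and strand mode were not given in the sources used here. Each mouse has 1 Salmon table, in which the authors deposited 140658 transcripts with estimated counts, which need not be whole, and TPM (scaled for effective length and depth), per the file headers.

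Identifiers were joined to GENCODE M21 (GRCm38). With versions 139921 matched, all of equal length, and 140137 matched in all; the other 521 (0.124 to 0.394% of counts) were left out. Deposited estimated counts were summed per gene, rounded and tested in R 4.3.3 with edgeR 4.0.16 (filterByExpr with a minimum count of 10 in 3 libraries, TMM, robust glmQLFit, glmQLFTest, two-sided, no covariate, Benjamini-Hochberg, threshold 0.05), transcripts likewise. DESeq2 1.42.0 was an alternative. CPM use TMM-scaled library sizes, deposited TPM serve only as levels, and intervals are 95%. An exact permutation test of 3 against 3 cannot go below p = 0.1. The steps were tested on simulated data. No pair of libraries within a group agreed within sampling noise (lowest chi-square over its degrees of freedom 12.2).

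Members, lists and tests were chosen with earlier results of these data known. Named were all members, their transcripts with at least 10% of the gene's counts or past the threshold, called list genes or else up to 4 with the lowest p, and the 3 genes with the most similar log2 CPM (prior count 0.5) per member. Outside this rule, named after their values were seen, are Pck1-202, Pck1-204, Gpd2-207, Pcx, Eno1, the single marker genes and the other glycerol relatives. Alternatives were RLE factors, no low-count filter, a transcript length offset, scaling to adipocyte markers, DESeq2 and left-out libraries.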

Additional observations from a re-analysis of the deposited data

How the results depend on the processing

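Of 72 alternative values for the 6 genes, 64 kept direction and side of the threshold. The exceptions were Gk, newly past it at 1.73 (DESeq2), 1.79 (transcript length offset), 1.80 (adipocyte scaling) and 2.21 (without ctrl 5 and cold 7), Pck2 at 0.01 with adipocyte scaling, and single libraries left out, over which Gk ran from 1.5 to 1.98 and Aqp7 from -0.18 to 0.05. The cause was not tested. Genes called numbered 516 by edgeR, 924 with no low-count filter, 1340 by DESeq2, 1230 without ctrl 5 and cold 7, and 0 to 1090 with 1 library left out (2546 or more at an unadjusted p under 0.05). Transcripts called numbered 0 by edgeR (3503 at an unadjusted p under 0.05), 8 with no filter and 1162 by DESeq2. Of the genes in pathway lists 2 were called, against 6 with no filter, 10 by DESeq2, 1 with the length offset, 8 with adipocyte scaling, 5 without ctrl 5 and cold 7, and 0 to 7 with 1 library left out. Values that turned sign lay near 0. Without ctrl 5 and cold 7 these were Aqp7-202 at -0.09, Pck2-210 at 0.02 and Lpin1 at -0.01, and with 1 library left out Aqp7-202 ran from -0.11 to 0.47 and Pck2-210 from -0.15 to 0.07. Adipocyte scaling moved the median log2 fold change of all genes to 0.083, against -0.013. It rests on the 12 adipocyte markers, of which 10 had negative log2 fold changes and which include Plin1 and Lipe of the lipolysis genes. No paired analysis was possible because the groups share no mouse number. With 3 mice per group, a gene that was not called may still differ, by an amount within the interval given for it.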
